A study of Mus musculus with 27 samples.

Results

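The genes described here are 32 mouse genes of cholesterol and fatty acid synthesis. They were chosen by name for their place in the pathway, with earlier results of these data known. All 32 symbols matched 1 gene identifier each among the 56691 in the count table, all had counts in at least 3 of the 27 libraries, and all 32 were among the 17573 genes that passed the filter on low counts. They comprise 18 genes of sterol synthesis, 6 genes of sterol sensing and transport, and 8 genes of fatty acid synthesis. The libraries are bulk RNA-seq of microglia, the resident macrophages of the brain, sorted from the peri-hematoma tissue of wild-type (WT) mice after intracerebral hemorrhage (ICH). ICH was induced with collagenase, an enzyme that digests the vessel wall, and sham animals received PBS. ABX mice had been given an antibiotic cocktail, GF mice were kept germ free, and SPF mice had neither treatment.

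Each of the 3 microbiota conditions had ICH libraries of day 7 and of day 3 and sham libraries labelled day 7, with 3 libraries in each of the 9 groups. A comparison of ICH day 3 with sham therefore also differs in day. The labels do not say that the 3 libraries of a group came from separate animals, so the p-values measure only the spread between these libraries, which may be technical. In bulk libraries, fewer cells of a type and less RNA per cell cannot be told apart.

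Cells make cholesterol from acetyl-CoA through the mevalonate pathway, which ends in a long series of sterol conversions, and they make fatty acids from the same precursor. Both branches are switched on by SREBP transcription factors, which are held in the endoplasmic reticulum by SCAP and INSIG proteins while sterol is plentiful and are released for processing when it is scarce. Microglia that clear debris take up lipid from myelin and dying cells, and they balance that uptake, their own synthesis and export to lipoproteins.

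Because SREBP and its partner factors act near the start sites of these genes, promoter windows of 250 bases before to 50 bases after the start were read from RefSeq (GRCm38.p6) for the 25 genes with an entry. Both strands were searched for the letters TCACNCCAC (a sterol response element), CCAAT (the box bound by NF-Y) and GGGCGG (the GC box bound by SP1), none of which overlaps another in its letters. TCACNCCAC was found in 1 of the 25 windows, that of Hmgcs1, and in 1.44% of the windows of 27025 genes. CCAAT was found in 20 of 25 windows (80%) against 41.1% of all genes, and GGGCGG in 21 of 25 (84%) against 38.2%. Stretches of 70 bases from 3 windows are shown because Hmgcs1, Ebp and Mvd head the results below: Hmgcs1 holds the sterol response element, Mvd holds 2 CCAAT boxes on opposite strands, and Ebp holds 1 CCAAT box and 1 GC box. They are from chr13:119690184-119690253 on the plus strand, chrX:8193530-8193599 on the minus strand and chr8:122443423-122443492 on the minus strand, all upstream of the start. Capitals mark the searched letters, and ATTGG is the CCAAT box read on the other strand. A match describes the letters only and is not evidence of binding.
Hmgcs1: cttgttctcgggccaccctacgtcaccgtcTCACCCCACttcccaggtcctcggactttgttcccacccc
Ebp: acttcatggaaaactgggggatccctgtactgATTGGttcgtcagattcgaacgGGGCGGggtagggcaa
Mvd: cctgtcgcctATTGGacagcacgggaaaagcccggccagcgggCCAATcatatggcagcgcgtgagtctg

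The deposited libraries held 41664864 to 79090595 counts each. The 10 microglia markers, among them P2ry12 and Tmem119, all had counts in every group and summed to 25500 to 109000 CPM (counts relative to the TMM-scaled library size). In 7 libraries fewer than 12000 genes were detected: all 3 GF ICH day 7 libraries, ABX ICH day 7 replicates 1 and 2, and GF sham replicates 1 and 2. In those 7 libraries 16 to 23 of the 32 synthesis genes had any count and 4 to 18 had 10 or more, against 23 to 32 and 22 to 32 in the 20 other libraries. All tested genes followed the same split, with 48.2 to 63.7% detected in the 7 and 70.1 to 90.2% in the 20. Mvk and Mvd, the kinase and the decarboxylase of the mevalonate pathway, were at 0 in all 7.

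**Figure D1:**
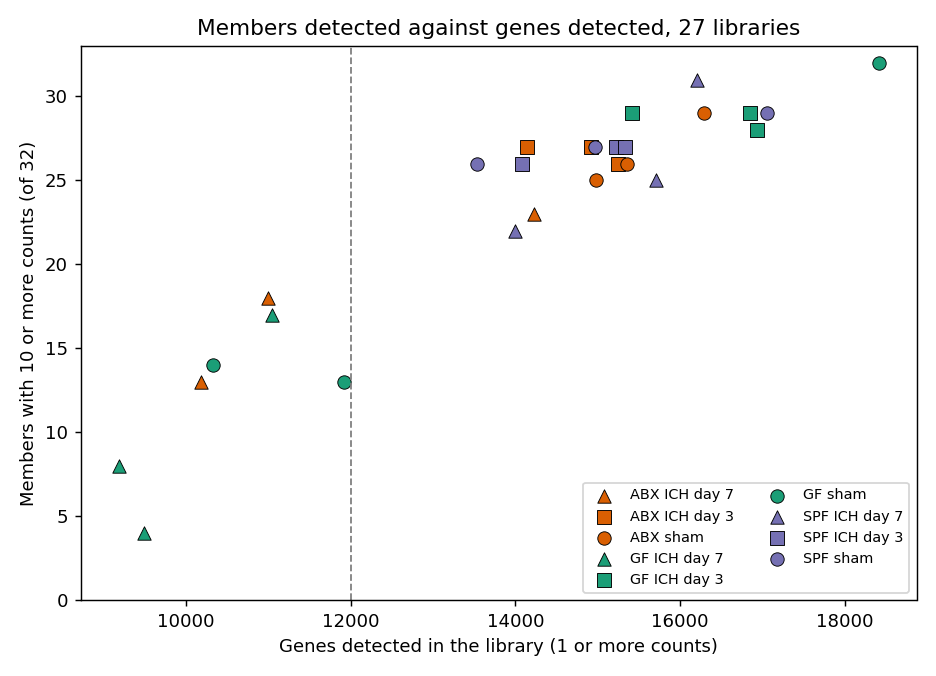
Number of the 32 synthesis genes with 10 or more counts in each of the 27 libraries, against the number of genes with any count in that library; colours are the microbiota conditions, symbols the time groups, and the dashed line marks 12000 genes. The 7 libraries left of the line hold 4 to 18 of the 32 genes and the 20 others 22 to 32.

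Levels of the genes were ordered per kilobase of exon over the 20 libraries with 12000 or more detected genes. Ebp, the sterol isomerase that moves the ring double bond, was highest at a median of 36 CPM per kb, with an interquartile range of 33 to 45.4, and had counts in all 27 libraries. Insig2, an endoplasmic reticulum protein that retains SCAP, was next at 16.9 CPM per kb (12.1 to 22.7). Pmvk (phosphomevalonate kinase) followed at 9.63, Msmo1 (sterol C4 methyl oxidase) at 7.6, Acat2 (cytosolic thiolase) at 7.14 and Fads1 (a front-end fatty acid desaturase) at 7.11 CPM per kb. The interquartile ranges of these 4 overlap, so their order among themselves is not resolved.

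The middle of the order was likewise a run of close neighbours. Nsdhl, a sterol dehydrogenase, had 5.88 CPM per kb, Acly, which makes cytosolic acetyl-CoA from citrate, had 5.72, and Fdps, which makes farnesyl diphosphate, had 5.66. Hmgcs1, which makes HMG-CoA, had 3.18 CPM per kb. Apart from Insig2, the genes of the SREBP machinery had lower values, at 1.36 CPM per kb for Insig1, 1.34 for Srebf1, 0.832 for Srebf2 and 0.601 for Scap.

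The last 6 genes in the order were 4 of fatty acid synthesis (Fasn, Acaca, Elovl6 and Scd1), the sterol cyclase gene Lss at 0.153 CPM per kb and the sterol carrier gene Stard4 at 0.101. Fasn (fatty acid synthase) had a median of 0.191 CPM per kb and was at 0 in 8 of the 20 libraries. Acaca (acetyl-CoA carboxylase) had 0.092, Elovl6 (a fatty acid elongase) had 0.00938, and Scd1 (a stearoyl-CoA desaturase) had a median of 0, with 11 of 20 libraries at 0. Scd2, the desaturase of the same family that predominates in brain, had 3.14 CPM per kb and counts in all 20.

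**Figure D2:**
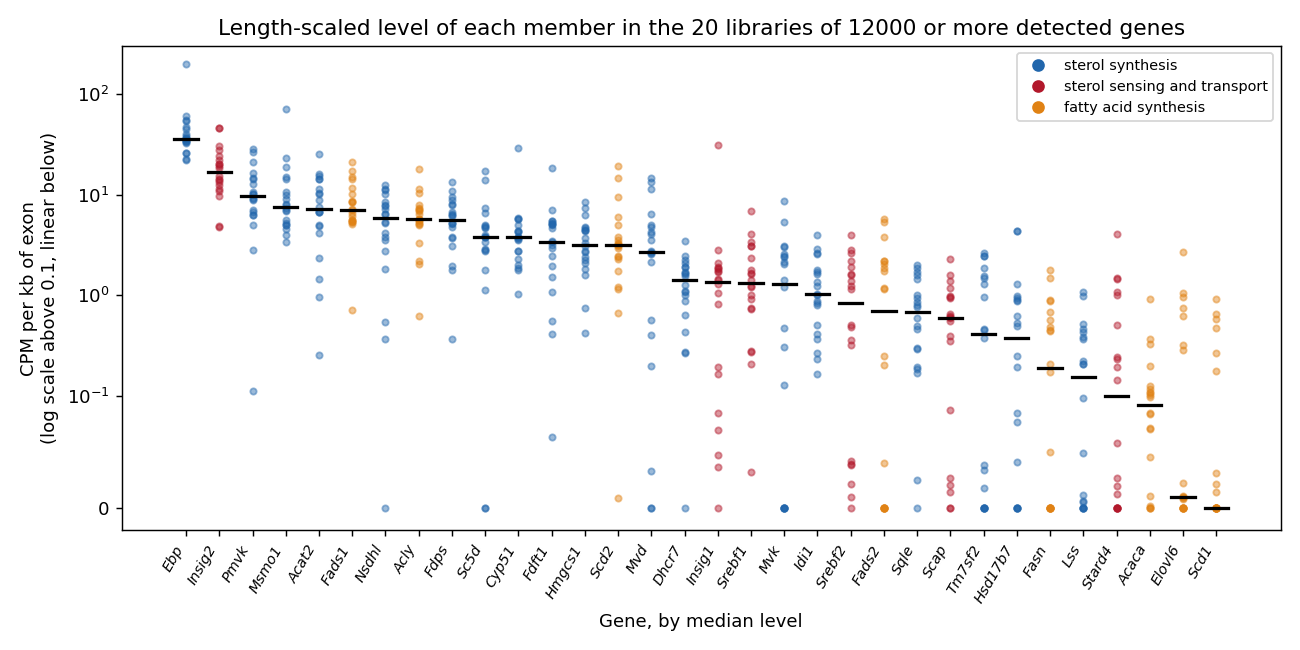
Level of each of the 32 genes per kilobase of exon in the 20 libraries with 12000 or more detected genes (points; bars are medians, colours are roles), on an axis that is log above 0.1 and linear below, in the order of the medians. Ebp stands first at 36 CPM per kb, and Elovl6 and Scd1 stand last.

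The strand setting of the counting is not given in the sources used here, so genes whose exons overlap another gene cannot be fully separated from it. Fdft1 (squalene synthase) shares 774 exon bases with Ctsb on the other strand, a very abundant protease gene of macrophages, and its values are uncertain for that reason. Fdps shares 1124 exon bases with Gm43738 on the same strand, Scap shares 985 with 5830462I19Rik, Hmgcs1 shares 557 with Gm48342, Tm7sf2 shares 532 with Vps51, Idi1 shares 323 with Gm48574 and Cyp51 shares 166 with Akap9.

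The first question was whether synthesis genes changed by day 3 of hemorrhage. None of the 32 passed the test in any condition: 0 in ABX, 0 in GF and 0 in SPF mice by edgeR's quasi-likelihood test at an adjusted p of 0.05, where 0.125%, 0.00569% and 0.102% of all tested genes passed. At an unadjusted p under 0.05 there were 1, 0 and 0 genes (8.27%, 5.29% and 7.26% of all tested genes). DESeq2 called 1 gene in ABX mice (Elovl6, lower), 0 in GF mice and 1 in SPF mice (Scd1, lower), where it called 6.18%, 4.05% and 5.43% of all tested genes. The median log2 fold change over the 32 genes was 0.04 in ABX, 0.86 in GF and -0.01 in SPF mice, against 0.00, 0.23 and -0.07 over all tested genes. The median standard error of a single gene's log2 fold change was 2.17 in ABX, 2.20 in GF and 2.17 in SPF mice, so only large changes could pass.

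Averaging the 3 conditions, 9 ICH day 3 libraries against 9 sham libraries, also gave 0 of 32 genes, with 1.3% of all tested genes called. Of the 32, 2 had an unadjusted p under 0.05 (12.3% of all tested genes) and DESeq2 called the same 2 (8.53% of all tested genes), both lower. They were Elovl6, with a log2 fold change of -4.89 (SE 1.84, edgeR adjusted p = 0.23), and Scd1, at -4.26 (SE 1.98, edgeR adjusted p = 0.377). Both are sparse genes. Elovl6 was at 0 in all 3 ABX ICH day 3 libraries, against 0, 4.82 and 0.0698 CPM in ABX sham. Scd1 was at 0 in all 3 SPF ICH day 3 libraries, against 2.33, 0.0704 and 0 CPM in SPF sham. The next smallest p-values belonged to Msmo1 (log2 fold change -1.53, SE 1.03), Hmgcs1 (-1.18, SE 0.84), Idi1 (1.21, SE 0.91) and Acly (0.97, SE 0.75), with edgeR adjusted p-values of 0.677, 0.72, 0.764 and 0.771. The value of Hmgcs1 was 0.10 without GF sham replicate 1, so its sign rests on that library.

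Among the abundant genes, Acly had 94.7, 26.99 and 29.9 CPM in ABX ICH day 3 libraries, against 11.6, 10.9 and 26.2 CPM in ABX sham. Its ABX groups did not overlap, as was also the case for Scd2 in the same direction and, in the other, for Ebp and Sc5d, a sterol desaturase. These are 2 of 32 genes higher and 2 lower without overlap, where 9.74% and 10.1% of all tested genes did so. In GF mice Pmvk and Mvd were higher and Msmo1 lower without overlap, 2 and 1 of 32, where 10.8% and 2.98% of all tested genes did so. In SPF mice no gene of the 32 separated day 3 from sham, where 9.18% of all tested genes were higher and 6.98% lower without overlap.

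In SPF mice the genes were also measured at day 7, and there again 0 of 32 passed against sham (0.0797% of all tested genes) and 0 of 32 against day 3 (0% of all tested genes) by edgeR's test. Not 1 had an unadjusted p under 0.05 in either comparison, where 5.01% and 4.09% of all tested genes did. DESeq2 called 0 against sham (4.03% of all tested genes) and 1, Scd1, higher against day 3 (3.77%). The summed level of the 32 genes was 414 to 702 CPM in SPF ICH day 7 libraries, 477 to 536 CPM in SPF ICH day 3 libraries and 515 to 704 CPM in SPF sham libraries, so the 3 groups overlapped. Hmgcs1 had 39.3, 16.9 and 33.6 CPM in SPF ICH day 7 libraries, against 20.2, 28.9 and 8.36 CPM in SPF sham. Ebp had 127.7, 50.8 and 83.0 CPM in SPF ICH day 7 libraries, against 103.7, 52.1 and 76.5 CPM in SPF sham.

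Fasn, a low gene in these libraries, lay apart from both other groups at day 7 in SPF mice. It had 0, 0 and 1.91 CPM in SPF ICH day 7 libraries, against 4.91, 16.3 and 6.26 CPM at day 3 and 19.3, 4.87 and 9.82 CPM in sham. Every SPF day 7 value lay below every day 3 and every sham value. Its log2 fold change against sham was -4.15 and it did not pass (edgeR adjusted p = 1). In all, 3 of 32 genes (Fdft1, Fasn and Fads1) lay below sham without overlap at day 7, where 4.62% of all tested genes did, and 3 (Idi1, Scap and Fasn) lay below day 3, where 5.91% did.

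**Figure D3:**
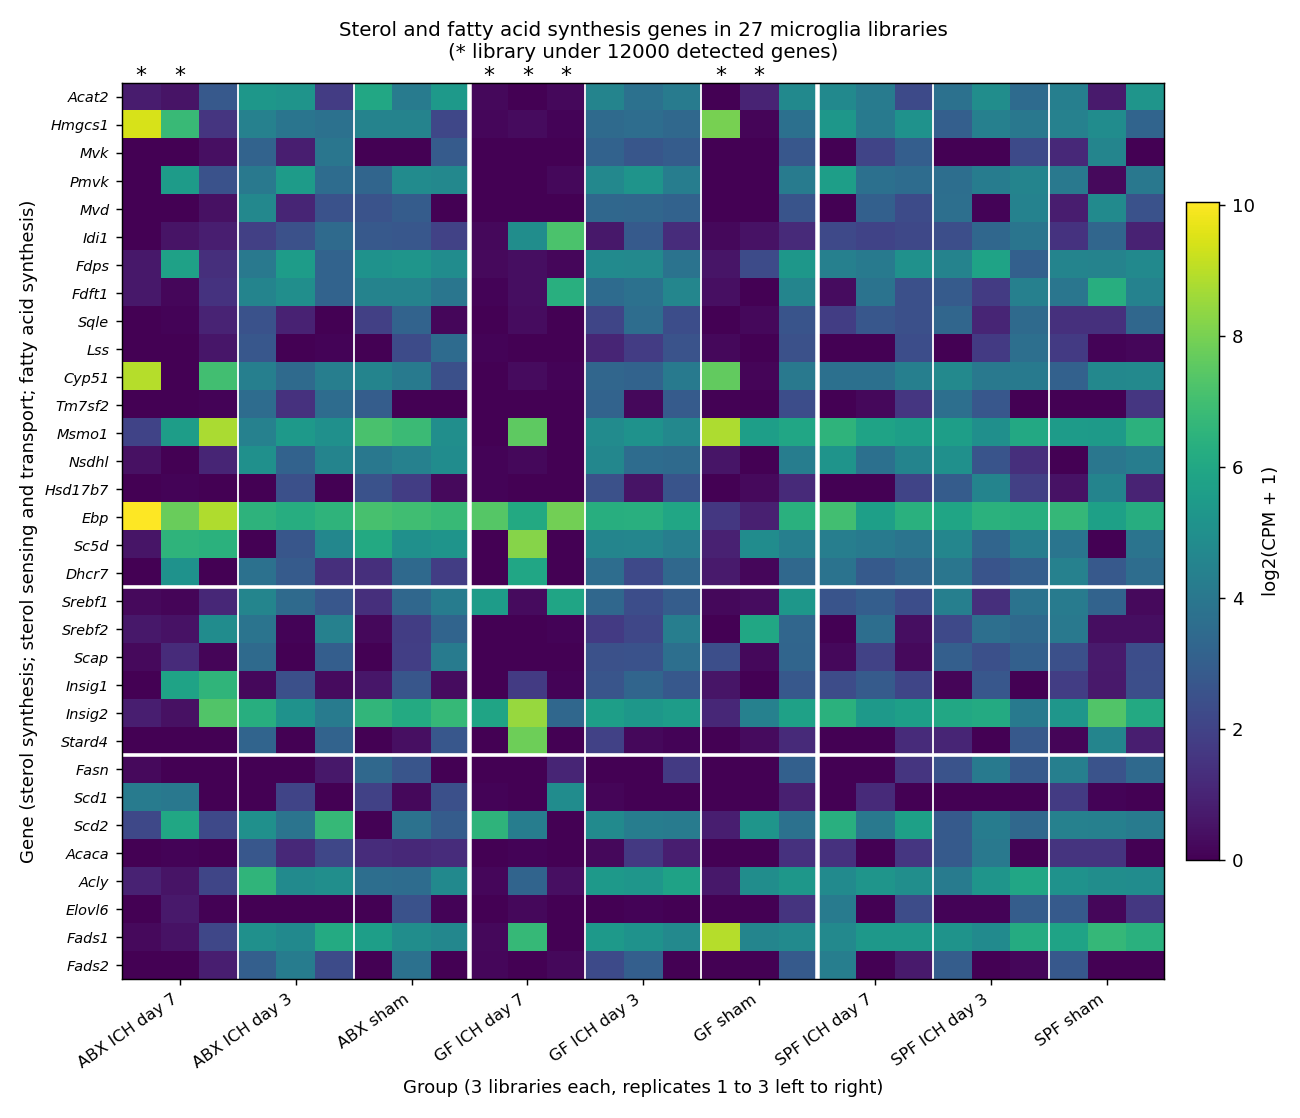
Level of each of the 32 genes (rows, by role) in each of the 27 libraries (columns, by group, replicates 1 to 3 from left to right) as log2 of CPM plus 1, with asterisks over the 7 libraries under 12000 detected genes. SPF libraries look alike across the 3 groups, while GF ICH day 7, part of ABX ICH day 7 and part of GF sham have many genes near 0.

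In ABX mice at day 7 none of the 32 passed against sham (0.945% of all tested genes) or against day 3 (0.728%) by edgeR's test, while 8 and 10 genes had an unadjusted p under 0.05 (21.5% and 20.8% of all tested genes) and DESeq2 called 11 and 13 (27.8% and 27.3% of all tested genes). The libraries of this group differed widely from one another. Hmgcs1 had 698, 110.2 and 1.94 CPM in ABX ICH day 7 libraries, against 21.8, 21.6 and 3.40 CPM in ABX sham. Cyp51 (lanosterol demethylase) had 486, 0 and 129 CPM in ABX ICH day 7 libraries, against 22.2, 16.6 and 4.50 CPM in ABX sham. Both genes thus ranged from below to far above their sham values within 1 group.

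Ebp was the gene of ABX mice that stood apart upward. It had 1062, 217 and 461 CPM in ABX ICH day 7 libraries, against 88.3, 75.7 and 92.6 CPM at day 3 and 138, 125 and 108 CPM in sham. The lowest day 7 library was above all others, but the log2 fold change of 2.23 against sham (SE 1.00) did not pass (edgeR adjusted p = 0.22). It was 1 of 32 genes higher than sham without overlap, where 7.8% of all tested genes were.

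The genes that lay below sham without overlap in ABX mice at day 7 were 9 of 32, where 22.4% of all tested genes did. Acly had 0.948, 0.451 and 3.31 CPM in ABX ICH day 7 libraries, against 11.6, 10.9 and 26.2 CPM in sham. Fads1 had 0.190, 0.397 and 3.47 CPM in ABX ICH day 7 libraries, against 48.7, 29.8 and 24.5 CPM in sham. Nsdhl had 0.379, 0 and 1.05 CPM in ABX ICH day 7 libraries, against 15.4, 20.4 and 28.8 CPM in sham. The other 6 were Acat2, Idi1, Fdft1, Hsd17b7, Srebf1 and Acaca. Against day 3, Ebp was higher and 11 genes lower without overlap, where 6.29% and 18.1% of all tested genes were. ABX ICH day 7 replicate 3, the library of this group with over 12000 detected genes, gave 3.31 CPM for Acly and 3.47 CPM for Fads1, below every sham library. Without the 7 libraries under 12000 detected genes, with that library alone in its group and its spread taken from the other groups, edgeR called 6 of the 32 against sham, 3 higher and 3 lower, and 12.2% of all tested genes. The 6 monocyte markers summed to 10.7 to 809 CPM in ABX ICH day 7 libraries, against 6.74 to 18.7 CPM in ABX sham with Vcan at 0, and their part in these values was not tested.

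The largest differences were in GF mice at day 7, where 6 of 32 synthesis genes passed against sham, 5 of them lower and 1 higher, with 14.4% of all tested genes called, 12.7% lower and 1.7% higher. The 5 that fell were Acat2, Hmgcs1, Fdps and Cyp51, which are sterol synthesis enzymes, and Scap, the sterol sensor that escorts SREBP. Against day 3, 7 of 32 fell and none rose, with 15.3% of all tested genes called, 13.4% lower: Acat2, Hmgcs1, Pmvk, Mvd, Fdps, Cyp51 and Scap. No fatty acid synthesis gene passed in either comparison. In the GF ICH day 7 libraries 16, 20 and 16 of the 32 genes had any count, against 30, 30 and 29 at day 3. GF sham replicates 1 and 2 had 19 each and replicate 3 had 32. The part of low detection in the falls was not tested.

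Hmgcs1 had 0.126, 0.226 and 0.0841 CPM in GF ICH day 7 libraries, against 10.2, 10.97 and 9.67 CPM at day 3 and 256, 0.0871 and 12.3 CPM in sham. The 3 day 3 values were close together, and the sham values spread from below the day 7 mean to far above it. Hmgcs1 fell by 9.24 on the log2 scale against sham (SE 2.06, edgeR adjusted p = 0.00482) and fell by 6.12 against day 3 (SE 1.81, edgeR adjusted p = 0.0261). The call against sham held whichever of the 6 libraries was left out, with an adjusted p of at most 0.0257. The call against day 3 was lost without any 1 of the GF ICH day 7 libraries, with an adjusted p of 0.0845 without replicate 3.

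Acat2, the thiolase that starts the pathway, had 0.168, 0 and 0.168 CPM in GF ICH day 7 libraries, against 22.5, 12.6 and 17.1 CPM at day 3 and 0, 0.980 and 26.2 CPM in sham. Only sham replicate 3, the GF sham library with over 12000 detected genes, was clearly above day 7. Acat2 fell by 6.31 against sham (SE 2.14, edgeR adjusted p = 0.0491), and this was lost without that library (adjusted p = 0.478) and without any 1 of the day 7 libraries. It fell by 7.25 against day 3 (SE 2.23, edgeR adjusted p = 0.0312), a call lost without day 3 replicate 1 or any 1 of the day 7 libraries (adjusted p up to 0.0778).

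Pmvk had 0, 0 and 0.147 CPM in GF ICH day 7 libraries, against 24.9, 36.0 and 18.4 CPM at day 3 and 0, 0 and 17.3 CPM in sham. Mvd was at 0 in all 3 GF ICH day 7 libraries, against 9.35, 8.89 and 7.97 CPM at day 3 and 0, 0 and 5.12 CPM in sham. Against day 3, Mvd was at least 144-fold lower, taking 3 counts per library as the floor, and both passed edgeR's test (adjusted p = 0.0383 for Pmvk and 0.0455 for Mvd). Leaving out any 1 library ended the call for Mvd (adjusted p up to 0.112), and leaving out any but day 7 replicate 3 ended that for Pmvk (up to 0.1). In GF sham both had counts in 1 library of 3, and neither passed against sham.

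Fdps and Cyp51, further down the pathway, followed. Fdps had 0.190, 0.301 and 0.126 CPM in GF ICH day 7 libraries, against 26.9, 25.7 and 13.03 CPM at day 3 and 0.483, 3.94 and 39.4 CPM in sham. It lay below both groups without overlap, and fell by 6.14 against sham (SE 1.71, edgeR adjusted p = 0.0184) and fell by 6.72 against day 3 (SE 1.76, edgeR adjusted p = 0.0135). The sham call was lost without day 7 replicate 1 or 3 or sham replicate 3 (adjusted p up to 0.123), and the day 3 call without day 7 replicate 3 (adjusted p = 0.0518). Cyp51 had 0, 0.226 and 0.0841 CPM in GF ICH day 7 libraries, against 8.86, 8.27 and 16.8 CPM at day 3 and 197.5, 0.0871 and 15.95 CPM in sham. It fell by 9.39 against sham (SE 2.45, edgeR adjusted p = 0.0129), which missed the threshold without day 7 replicate 3 (adjusted p = 0.0507), and fell by 6.74 against day 3 (SE 2.20, edgeR adjusted p = 0.0403), which was lost without any 1 library (adjusted p up to 0.11).

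Scap was the regulator that changed. It was at 0 in all 3 GF ICH day 7 libraries, against 4.63, 4.82 and 11.8 CPM at day 3 and 4.39, 0.174 and 8.79 CPM in sham. It was thus at least 73.1-fold lower than in sham and at least 116-fold lower than at day 3 (edgeR adjusted p = 0.025 and 0.0218). Both calls were lost without any 1 of the GF ICH day 7 libraries, with adjusted p-values up to 0.0744 against sham and 0.0672 against day 3. The transcription factor gene Srebf2 had 0, 0 and 0.0841 CPM in GF ICH day 7 libraries, against 2.28, 3.45 and 18.7 CPM at day 3, and did not pass (edgeR adjusted p = 0.0839).

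Idi1, the isomerase that follows Mvd, was the gene that rose in GF mice at day 7. It had 0.168, 29.7 and 146 CPM in GF ICH day 7 libraries, against 0.575, 6.24 and 1.45 CPM at day 3 and 0.161, 0.392 and 1.297 CPM in sham. A pair of day 7 libraries was high and the other was within the sham range. Its log2 fold change against sham was 6.56 (SE 1.99, edgeR adjusted p = 0.0287), and the call was lost without day 7 replicate 3 or sham replicate 1 or 2 (adjusted p up to 0.132). Several other genes were high in a single GF ICH day 7 library. Sc5d had 0, 296 and 0 CPM, Stard4, a carrier of sterol between membranes, had 0, 228 and 0 CPM, and Fdft1 had 0.0842, 0.282 and 80.8 CPM.

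Not every gene was low. Ebp had 169.9, 67.9 and 242.5 CPM in GF ICH day 7 libraries, against 79, 80 and 60.2 CPM at day 3 and 2.06, 0.850 and 83.5 CPM in sham, with a log2 fold change of 2.47 against sham (SE 1.01) that did not pass (edgeR adjusted p = 0.0991). Insig2 had 58.1, 363 and 9.38 CPM in GF ICH day 7 libraries, against 48.9, 39.4 and 46.1 CPM at day 3. Of the 32 genes, 17 lay below day 3 without overlap and none above, where 32.6% of all tested genes lay below. The median log2 fold change over the 32 genes was -4.55 against day 3 and -3.81 against sham, beside -2.49 and -2.10 over all tested genes. By role, the medians against day 3 were -6.64 for sterol synthesis, -0.66 for sterol sensing and transport and -0.53 for fatty acid synthesis. With the 4 genes at 0 in all GF ICH day 7 libraries (Mvk, Mvd, Tm7sf2 and Scap) set at their bound, the medians over the 32 genes were the same, and that of sterol synthesis against day 3 was -6.46.

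**Figure D4:**
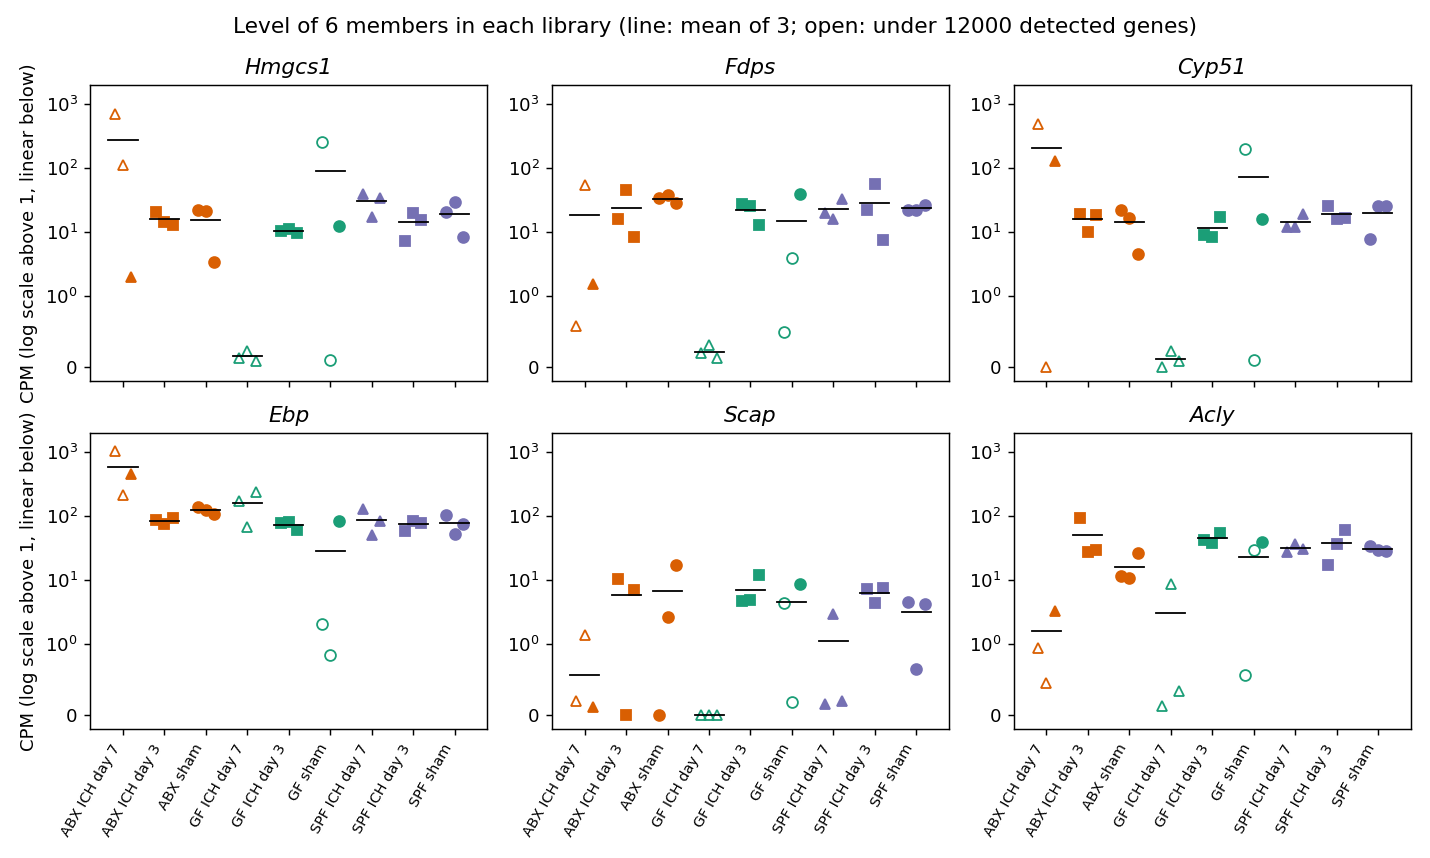
CPM of Hmgcs1, Fdps, Cyp51, Ebp, Scap and Acly in every library by group, on an axis that is log above 1 and linear below, with lines at the mean of 3 and open symbols for the 7 libraries under 12000 detected genes. In GF ICH day 7, Hmgcs1, Fdps and Cyp51 lie at or below 0.301 CPM and Scap at 0, while Ebp lies at 67.9 to 242.5 CPM.

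Markers of the cells in these libraries were read beside these results. Of the 10 microglia markers, 5 fell in GF ICH day 7 against sham and none rose, with log2 fold changes of -5.94 for Csf1r, -4.04 for Cx3cr1, -3.51 for Tmem119, -2.28 for C1qa and -1.63 for Trem2 (edgeR adjusted p of 0.0117 or less). Their summed level was 41900 to 68000 CPM in GF ICH day 7, against 31100 to 55500 CPM at day 3 and 45700 to 108000 CPM in GF sham. The 6 neutrophil markers all had counts in the group and summed to 738 to 3530 CPM, against 45 to 236 CPM at day 3 and 4.63 to 121 CPM in GF sham. The 6 monocyte markers all had counts and summed to 310 to 1550 CPM, against 39.8 to 190 CPM at day 3 and 4.12 to 614 CPM in sham. They did not all go 1 way against sham. Ccr2 and Plac8 rose (log2 fold changes of 8.9 and 6.99, edgeR adjusted p = 0.00252 and 0.014). F13a1 fell (-10, edgeR adjusted p = 0.0315). The 10 oligodendrocyte markers summed to 80.9 to 385 CPM, against 138 to 255 CPM at day 3 and 126 to 756 CPM in sham, so these sums overlapped. Of the 10, Mog, Mag, Cldn11, Opalin, Ugt8a and Olig2 were at 0, the last 4 of them in GF sham too. Of the 8 tested, Mbp (log2 fold change -8.31, edgeR adjusted p = 0.00196) and Mag (0.00839) fell against sham and 0 rose. Both were also called lower against day 3. The 9 astrocyte markers summed to 61.8 to 374 CPM, against 118 to 165 CPM at day 3 and 181 to 404 CPM in sham, with Gjb6 (also in sham), Aldh1l1 and S100b at 0. The difference between GC-rich and GC-poor genes (top minus bottom quintile of GC content, log2) was -2.13 ± 0.59 in GF ICH day 7, against 1.28 ± 0.28 in GF ICH day 3 and 0.76 ± 0.39 in GF sham (SD, n = 3). The median GC content was 49.6% for the 32 genes and 49% for all tested genes. Of the genes called lower, Scap had 59.1%, Mvd 59%, Pmvk 57%, Fdps 50.6%, Acat2 49.6%, Cyp51 46.2% and Hmgcs1 43.1%. Idi1, called higher, had 41.9%. With an offset for GC content in the fit, 4 genes were called against sham (Hmgcs1, Fdps, Cyp51 and Ebp) and 6 against day 3. With that offset the calls of Acat2, Idi1 and Scap against sham were lost, as were those of Pmvk and Mvd against day 3. The part of the microglia, oligodendrocyte, neutrophil and monocyte markers in the result was not tested.

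Over the mean of the 3 conditions, day 7 differed from sham in 6 of 32 genes, 5 lower and 1 higher, with 20.2% of all tested genes called, 16.5% lower and 3.72% higher. It differed from day 3 in 10 of 32, 9 lower and 1 higher, with 20.1% called, 16.8% lower and 3.34% higher. These means hold 5 of the 7 libraries with few detected genes on the day 7 side. Scap had 0.190, 1.39 and 0.105 CPM in ABX, 0, 0 and 0 CPM in GF and 0.152, 2.96 and 0.196 CPM in SPF ICH day 7 libraries. Its ICH day 3 values were 10.2, 0 and 7.04 CPM in ABX, 4.63, 4.82 and 11.8 CPM in GF, and 7.14, 4.44 and 7.39 CPM in SPF mice. Scap was therefore below every day 3 library in GF and SPF mice. It fell by 5.35 against sham (SE 1.46, edgeR adjusted p = 0.0162) and fell by 5.85 against day 3 (SE 1.5, edgeR adjusted p = 0.0118), and both calls held whichever of the 18 libraries was left out. Fitted fold changes of genes at 0 in a whole group, such as Scap, Mvd, Tm7sf2 and Scd1, depend on the prior count and are no bounds.

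Acly, which supplies acetyl-CoA to both branches, was the fatty acid gene whose call against day 3 did not depend on a single library. It had 0.948, 0.451 and 3.31 CPM in ABX, 0.126, 8.53 and 0.336 CPM in GF, and 27.3, 36.7 and 30.5 CPM in SPF ICH day 7 libraries. At day 3 it had 94.7, 26.99 and 29.9 CPM in ABX, 42.02, 38.3 and 54.5 CPM in GF, and 17.4, 37.0 and 60.3 CPM in SPF mice. It was low at day 7 in ABX and GF mice and within the day 3 range in SPF mice. Acly fell by 3.06 (SE 0.80, edgeR adjusted p = 0.0122) and kept the call without any 1 of the 18 libraries. Mvd, which fell by 6.62 against day 3 (SE 1.85, edgeR adjusted p = 0.0189), also kept its call in each of those 18 fits.

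The remaining calls of the averaged comparisons depended on single libraries. Against sham, Acat2 fell by 3.56 (adjusted p = 0.0262), Mvd fell by 5.37 (0.0363), Nsdhl fell by 3.56 (0.0477) and Fdps fell by 2.33 (0.0484) by edgeR's test, and these were lost without 4, 11, 14 and 15 of the 18 libraries, each with its largest adjusted p without GF sham replicate 3 (0.137, 1, 0.273 and 0.235). Ebp rose by 1.62 (edgeR adjusted p = 0.0458) and was lost without 12 of the 18, with an adjusted p of up to 0.0987 without ABX ICH day 7 replicate 1. The rise of Ebp was also lost under the size factors of DESeq2.

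Against day 3, the 9 genes that fell included the late sterol enzymes Tm7sf2, Nsdhl and Hsd17b7. Tm7sf2, a sterol reductase, had 0, 0 and 0.0788 CPM in ABX, 0, 0 and 0 CPM in GF and 0, 0.167 and 2.04 CPM in SPF ICH day 7 libraries, against 10.8, 1.67 and 10.8 CPM in ABX, 8.29, 0.149 and 6.49 CPM in GF and 11.6, 5.72 and 0 CPM in SPF mice at day 3. It fell by 7.404 (edgeR adjusted p = 0.0255). Nsdhl fell by 4.04 (0.0321) and Hsd17b7, a sterol ketone reductase, fell by 5.29 (0.0406). The others were Acat2, which fell by 3.61 with an edgeR adjusted p of 0.0248, and Fdps, which fell by 2.45 with 0.0411. Acaca fell by 5.03 (edgeR adjusted p = 0.0345). These 6 were lost without 2 (Acat2), 5 (Tm7sf2), 9 (Nsdhl), 10 (Acaca), 12 (Hsd17b7) or 14 (Fdps) of the 18 libraries, with a largest adjusted p of 0.0595 for Acat2 and 0.0592 for Tm7sf2, 0.0688 for Nsdhl, 0.0704 for Acaca and 0.0815 for Fdps, and 1 for Hsd17b7, without ABX ICH day 3 replicate 2.

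Scd1 was the gene higher at day 7 than at day 3 over the 3 conditions. It had 17.2, 15.4 and 0 CPM in ABX, 0.0842, 0 and 28.3 CPM in GF and 0, 1.32 and 0 CPM in SPF ICH day 7 libraries, against 0, 3.21 and 0 CPM in ABX, 0.105, 0 and 0 CPM in GF and 0, 0 and 0 CPM in SPF mice at day 3. The high values came from 3 libraries with few detected genes. Its log2 fold change was 6.35 (SE 2.23, edgeR adjusted p = 0.0485). The call was lost without 14 of the 18 libraries, with an adjusted p of 1 without SPF ICH day 7 replicate 2. Without the 7 libraries and over SPF and ABX mice, where SPF day 3 and the ABX day 7 library left are at 0, the fitted value was -0.65 with an SE of 2020 (edgeR adjusted p = 1), which gives no direction.

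Leaving out the 7 libraries and averaging SPF and ABX mice, a choice made after seeing the data, left 1 ABX ICH day 7 library and no GF ICH day 7 library. Of the 32 genes, 3 were then called against sham, with Ebp higher and Dhcr7 and Fads1 lower, and 5 against day 3, with Msmo1 and Ebp higher and Dhcr7, Acly and Fads1 lower. The same fit called 9.91% of all tested genes against sham and 8.87% against day 3. Ebp against sham and Acly against day 3 were the calls shared with the fit on all libraries.

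**Figure D5:**
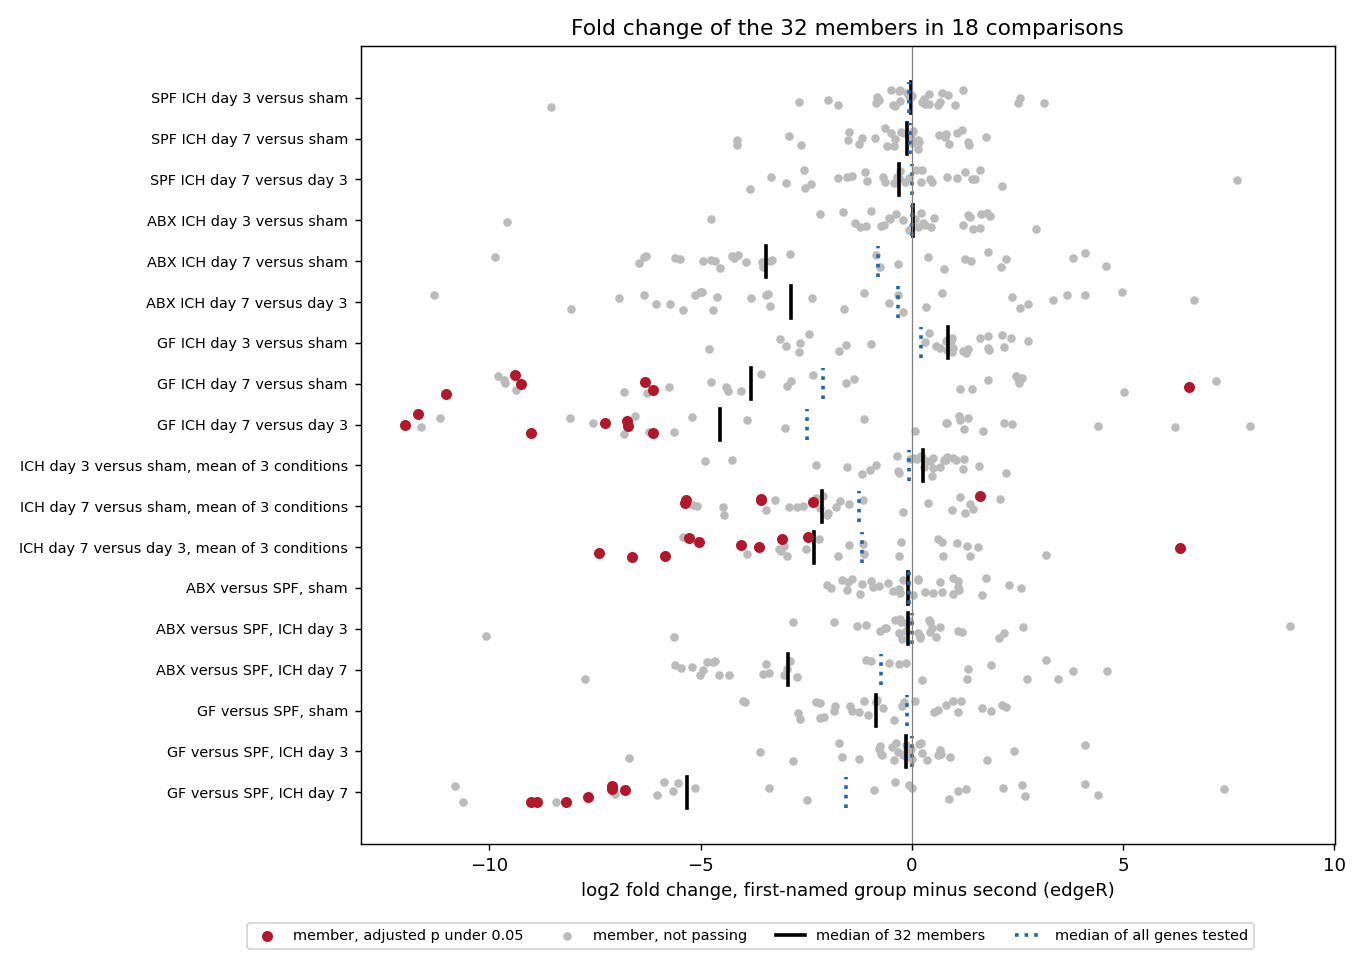
Log2 fold change (edgeR) of each of the 32 genes, as points, in 18 comparisons down the page, the first-named group minus the second, with the genes that passed at an adjusted p of 0.05 in red, the others in grey, the median of the 32 as a solid bar and that of all tested genes as a dotted bar. Red points appear in the comparisons that hold GF ICH day 7 libraries, with 5 genes lower and Idi1 higher in GF ICH day 7 against sham, and the medians lie at -3.81 for the 32 genes and -2.10 for all tested genes there.

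The last question was whether the microbiota condition alone set the level of these genes. In sham mice 0 of 32 genes passed for ABX against SPF (0% of all tested genes) or GF against SPF (0.00569%), and at day 3 again 0 for both (0% of all tested genes each) by edgeR's test. No gene had an unadjusted p under 0.05 in these 4 comparisons, except 2 for ABX against SPF at day 3. Of all tested genes, 4.05% and 6.22% did so in sham and 4.89% and 3.46% at day 3, for ABX and GF mice. DESeq2 called Scd1 in both day 3 comparisons, Elovl6 in that of ABX mice, and 0 in sham. It called 4.33% and 3.25% of all tested genes at day 3 and 3.28% and 4.98% in sham. In sham, Ebp, Fdps and Sc5d were higher in ABX than in SPF mice without overlap and Scd2, Acly and Fads1 lower, 3 of 32 each way, where 4.58% and 4.18% of all tested genes did so. Ebp had 138, 125 and 108 CPM in ABX sham, against 103.7, 52.1 and 76.5 CPM in SPF sham. Acly had 11.6, 10.9 and 26.2 CPM in ABX sham, against 33.7, 29.8 and 28.7 CPM in SPF sham.

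At day 7, ABX against SPF gave 0 of 32 genes by edgeR's test (0.0854% of all tested genes), with 4 at an unadjusted p under 0.05 (19.4% of all tested genes) and 9 called by DESeq2 (25.4%). GF against SPF gave 7 of 32, all lower, with 12.9% of all tested genes called, 11.8% lower: Hmgcs1, Fdps, Acat2, Cyp51, Pmvk, Nsdhl and Scap. Against the SPF ICH day 7 values, Hmgcs1 had a log2 fold change of -7.66 (SE 1.94, edgeR adjusted p = 0.0137) and Fdps one of -6.79 (SE 1.76, edgeR adjusted p = 0.0153). Fdps had 0.190, 0.301 and 0.126 CPM in GF ICH day 7 libraries, against 19.98, 16.1 and 32.8 CPM in SPF. Nsdhl had 0.0842, 0.150 and 0 CPM in GF ICH day 7 libraries, against 35.7, 12 and 22.3 CPM in SPF (edgeR adjusted p = 0.0473). Acat2, Cyp51, Pmvk and Scap had edgeR adjusted p-values of 0.0367, 0.038, 0.0446 and 0.0497, and Scap was at least 18.1-fold lower.

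Hmgcs1 lost the GF against SPF call without GF ICH day 7 replicate 3 (adjusted p = 0.0548), and Fdps without that library (0.0579) or replicate 1. Acat2 and Cyp51 lost it without 5 of the 6 libraries, and Pmvk, Nsdhl and Scap without any 1 of the 6 (adjusted p up to 0.135). Of the 32 genes, 10 lay below SPF without overlap, where 24.4% of all tested genes did. The median log2 fold change over the 32 genes was -5.33, or -3.89 with genes at 0 in all GF libraries set at their bound, beside -1.56 over all tested genes.

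The day 7 response itself, ICH day 7 minus sham, was compared between conditions by an interaction term. The response of GF mice minus that of SPF mice passed for 1 of 32 genes, Hmgcs1, negative in sign, with 7.04% of all tested genes called, 6.76% negative. Hmgcs1 averaged 0.145 ± 0.073 CPM in GF ICH day 7 and 89.5 ± 144 CPM in GF sham libraries, against 29.9 ± 11.6 CPM in SPF ICH day 7 and 19.2 ± 10.3 CPM in SPF sham libraries (SD, n = 3). The difference of the log2 responses was -9.88 (SE 2.41, edgeR adjusted p = 0.0175), and it was lost without any 1 of the SPF sham libraries or without GF sham replicate 1, with an adjusted p of up to 0.0739. Within GF sham, replicate 1 had 256 CPM and replicate 2 had 0.0871 CPM, both of them libraries with few detected genes. The response of ABX mice minus that of SPF mice gave 0 of 32 at day 7 (1 at an unadjusted p under 0.05, 1 by DESeq2), and both interactions at day 3 gave 0 (1 for ABX and 0 for GF at an unadjusted p under 0.05, 2 and 1 by DESeq2), with 0% of all tested genes called by edgeR's test. At an unadjusted p under 0.05 there were 12.7% of all tested genes for ABX at day 7, and 5.58% and 5.68% for ABX and GF at day 3. DESeq2 called 11%, 3.83% and 2.81% there.

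Related genes outside the 32 give the setting. Of 24 other genes of sterol and fatty acid synthesis, 22 were tested, and in GF ICH day 7 against sham 4 fell (Acss2, Tecr, Mbtps1 and Mcat) and 1 rose (Hsd17b12), where 12.7% of all tested genes were called lower and 1.7% higher. Mbtps1 encodes the protease that makes the first cleavage of SREBP, and it fell by 10.1 (SE 2.23, edgeR adjusted p = 0.00455). At day 3, 0 of the 22 passed against sham over the mean of the 3 conditions, the same count as for the 32 genes.

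Genes that store or export sterol were read at day 3 over the mean of the 3 conditions, where 1.3% of all tested genes were called. Of 9 genes of cholesterol efflux and its LXR regulators, 2 rose, 0 fell and 7 did not pass. Apoe, the main lipoprotein component of brain, had 5377, 7267 and 7148 CPM in SPF ICH day 3 libraries, against 406.5, 691 and 213 CPM in SPF sham, and in GF mice 4275, 9126 and 8961 CPM, against 8090, 2945 and 2853 CPM in GF sham, where the groups overlapped. It rose by 2.90 over the 3 conditions (SE 0.29, edgeR adjusted p = 1.25e-06). Ch25h, which makes 25-hydroxycholesterol, a suppressor of SREBP processing, had 152, 69.7 and 88.2 CPM in SPF ICH day 3 libraries, against 0.0279, 0.721 and 3.61 CPM in SPF sham. It rose by 5.54 over the 3 conditions (SE 1.10, edgeR adjusted p = 0.00922). Of 8 genes of sterol ester storage and lysosomal release, 1 rose, the lipid droplet coat gene Plin2, by 3.73 (SE 0.77, edgeR adjusted p = 0.0126), and 7 did not pass. The 5 border-associated macrophage markers summed to 31.6 to 130 CPM in ABX, 26.7 to 83.1 CPM in GF and 36.2 to 131 CPM in SPF ICH day 3 libraries, against 0.768 to 22.1, 3.22 to 12.1 and 0.668 to 7.81 CPM in the matching shams, with Lyve1 at 0 in all 3 sham groups and in SPF ICH day 3, and Cd163 at 0 in SPF and ABX ICH day 3. Their part in the result was not tested.

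At day 7, over the 3 conditions, Apoe and Ch25h were again higher than in sham, by 3.64 and 5.04 (edgeR adjusted p = 3.8e-08 and 0.00354), where 3.72% of all tested genes were called higher. Apoe had 4315, 3619 and 5338 CPM in GF ICH day 7 libraries, within the GF sham range of 2853 to 8090 CPM, and did not pass in GF mice alone. Its day 7 response differed between GF and SPF mice by -6.16 on the log2 scale (SE 0.71, edgeR adjusted p = 6.52e-05), so the mean does not describe GF mice. Ch25h had 0.8, 0.357 and 124.6 CPM in GF ICH day 7 libraries, against 1.61, 0.305 and 0.287 CPM in GF sham (edgeR adjusted p = 0.0451). In ABX mice Ch25h had 2.47, 130 and 11.1 CPM at day 7, against 8.47, 3.23 and 1.47 CPM in sham, where the groups overlapped. In SPF mice every day 7 library was above sham for Ch25h. Soat1, which esterifies cholesterol, rose by 2.04, Plin2 by 3.19 and Lipa, the lysosomal lipase, by 1.01 (edgeR adjusted p = 0.0212, 0.00677 and 0.0106). In the same comparison Nr1h2, Abcg1, Pnpla2 and Npc1 fell. Plin2 had 690.1, 2.05 and 1.28 CPM in GF ICH day 7 libraries, against 20.6, 2.83 and 58.3 CPM in GF sham, while in ABX and SPF mice all its day 7 values were above sham. Soat1 had 1104, 427 and 449 CPM in ABX, 0.190, 370 and 97.8 CPM in GF and 139, 100.4 and 131 CPM in SPF ICH day 7 libraries, against 54.5, 61.1 and 60.6 CPM in ABX, 76.4, 51.1 and 48.7 CPM in GF and 75.7, 32.4 and 51.5 CPM in SPF sham. Every ABX and SPF day 7 library was above its sham group.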

How the data were processed

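RNA of sorted microglia was amplified with the SMART-Seq v4 low-input kit and read from both ends for 150 bases each, per the labels' protocols. Tools listed in the submitters' processing notes are HISAT2 2.0.4, cutadapt 1.9, edgeR and StringTie 1.3.4d, with the mm10 build. The annotation release, strand setting and mate counting are not given in the sources used here. The authors deposited whole-number counts per gene for 27 libraries, per the file headers and the values. GENCODE M21 gave a symbol to 52073 of 56691 identifiers.

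The filterByExpr rule of edgeR left 17573 genes holding 99.9% of counts. All 22 comparisons used 1 quasi-likelihood fit (edgeR 4.0.16, robust, R 4.3.3) over the 9 group means, with TMM factors of 0.476 to 1.31, a common biological coefficient of variation of 1.54, and p-values adjusted over all tested genes by Benjamini-Hochberg at 0.05. Means of 3 conditions average the contrasts. Fold changes are log2. Each SE is the size of the fitted log2 fold change divided by the square root of edgeR's F statistic, not a separate estimate. The procedure was tested on simulated counts with the same spread for every gene and changes in SPF ICH day 7 only. Low detection in some libraries was not simulated, so that test does not cover the groups that hold them. Every gene past the threshold is named; where fewer than 6 passed in an averaged comparison, the 6 smallest p-values are named. Alternatives were DESeq2 1.42.0, its size factors, no filter, a replicate block, GC offsets, and leaving out libraries. The members and lists were chosen with earlier results of these data known.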

Additional observations from a re-analysis of the deposited data

Results flagged for a closer look

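The day 7 response of Hmgcs1, the HMG-CoA synthase gene, differed between GF and SPF mice by -9.88 on the log2 scale (SE 2.41, edgeR adjusted p = 0.0175), by the interaction term that tests the difference itself. Hmgcs1 was 0.126, 0.226 and 0.0841 CPM in GF ICH day 7 and 256, 0.0871 and 12.3 CPM in GF sham libraries, and 39.3, 16.9 and 33.6 CPM in SPF ICH day 7 and 20.2, 28.9 and 8.36 CPM in SPF sham libraries. The difference kept its sign without GF sham replicate 1, which holds the value of 256 CPM, but no longer passed. All 3 GF ICH day 7 libraries, and GF sham replicates 1 and 2, had fewer than 12000 detected genes, and the part of that in the result was not tested.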

How the results depend on the processing

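The log2 fold change of each named gene kept its direction under every alternative fit but for Hmgcs1 at day 3 against sham over the 3 conditions, which ranged from -1.38 to 0.10, the last without GF sham replicate 1 (the cause was not tested), and Scd1 at day 7 against day 3. Scd1 was -0.65 with an SE of 2020 without the 7 libraries under 12000 detected genes (mean of SPF and ABX), where whole groups are at 0, so that fit gives no direction.

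DESeq2 called more genes of the 32 than edgeR. Against sham its counts were 1 in SPF and 1 in ABX mice at day 3, 2 at day 3 over the 3 conditions, and 11 in ABX, 16 in GF and 16 over the 3 conditions at day 7. Its shares of all tested genes were 5.43%, 6.18%, 8.53%, 27.8%, 39.4% and 38.2%, in that order. For day 7 against day 3 its counts were 13 in ABX, 17 in GF, 1 in SPF and 17 over the 3 conditions (27.3%, 39%, 3.77% and 37.6% of all tested genes). For ABX against SPF they were 2 at day 3 and 9 at day 7 (4.33% and 25.4%), and for GF against SPF 1 and 16 (3.25% and 35.9%). For the differences in response from SPF they were 2 at day 3 and 1 at day 7 in ABX mice (3.83% and 11%), and 1 and 12 in GF mice (2.81% and 28.2%). The counts over all tested genes moved by more than 1.5 times in all 22 comparisons under DESeq2.

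For the GF difference in day 7 response, where edgeR called 1, DESeq2 size factors gave 2, no filter 2 and GC offsets 2. With no filter the count was 3 in place of 6 at day 7 against sham over the 3 conditions and 4 in place of 7 for GF against SPF at day 7. A replicate block gave 4 for GF against SPF at day 7 and moved no other count of the 32 by more than 1.5 times. The numbers do not pair the libraries: 108 same-number pairs had deviations with a median correlation of 0.00693 (range -0.13 to 0.105), and 12 of 27 libraries correlated best with their own number. Of the named values, 10 passed with no block and not with it.

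Without the 7 libraries, ABX ICH day 7 has 1 library left, so the counts of its comparisons carry no spread of that group. The mean of SPF and ABX gave 3 against sham and 5 against day 3. GF ICH day 7 comparisons then have no library.

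Leaving out each library in turn, the count ranged from 1 to 7 at day 7 against sham and 3 to 13 against day 3 over the 3 conditions, and from 0 to 1 at day 3. In GF mice it ranged from 1 to 8 for day 7 against sham (1 without day 7 replicate 3), 1 to 6 against day 3 (1 without day 7 replicate 1 or 3), 0 to 7 against SPF at day 7 (0 without GF day 7 replicate 3) and 0 to 5 for the difference in day 7 response (0 without any 1 SPF sham library, 5 without GF day 7 replicate 2). It ranged from 0 to 1 in the ABX comparisons of day 7 with sham, day 3 and SPF, all reaching 1 (Insig2, lower) without ABX ICH day 7 replicate 3, and from 0 to 1 in GF day 3 against sham, its difference from SPF, and GF against SPF sham, all reaching 1 (Ebp) without GF sham replicate 3, as did the mean at day 3. With 3 libraries a group the median SE of a log2 fold change was 2.17 to 2.20 at day 3 against sham, so small changes could not pass. Whether depth limits the calls was not tested.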
